A study of Saccharomyces cerevisiae with 21 samples.

Results

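The allantoin pathway genes DAL1, DAL2, DAL3, DAL4, DAL5, DCG1 and DUR3 of the yeast Saccharomyces cerevisiae were followed across 7 groups of anaerobic chemostat cultures. They are the genes of allantoin, allantoate and urea use that were listed for this purpose by name and had a probe set of their own, 7 of the 5656 genes measured by single-gene probe sets on this Affymetrix array type (YG-S98). All 7 passed the filter that a gene be above the lowest usable signal on at least 1 array, and all were tested. DUR1,2, which encodes the enzyme that breaks down urea, has no single-gene probe set in the annotation used and was not analysed here.

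Yeast can live on allantoin, a product of purine breakdown, by converting it through allantoate and ureidoglycolate to urea and then to ammonium. The pathway is a textbook case of nitrogen catabolite repression: while a good nitrogen source such as ammonium is plentiful the genes are kept low, with Ure2 holding the activator Gln3 in the cytoplasm. When nitrogen runs short the GATA activators Gln3 and Gat1 act on them against the GATA repressors Dal80 and Gzf3, and pathway metabolites add induction through Dal81 and Dal82.

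In the study steady-state cultures were limited for a single nutrient, and RNA of each whole culture was hybridised to 1 array. The wild type, strain CEN.PK113-7D (MATa MAL2-8c SUC2, prototrophic), was limited for glucose as carbon source (C), nitrogen (N), phosphorus (P), sulfur (S) or zinc (Zn), and 2 further groups, limited for C or N, were a strain of the same background without the stress transcription factors Msn2 and Msn4. It carries ura3, a loxP scar in MSN2 (msn2::loxP), the marker kanMX between loxP sites in MSN4 (msn4::loxP-kanMX-loxP) and the plasmid p426(URA3), and each of the 7 groups has 3 arrays. All cultures were grown at a dilution rate of 0.10 per h, which fixes the growth rate, and at pH 5.0, with Tween 80 and ergosterol stated as anaerobic supplements everywhere except in the C-limited wild type. Glucose left in the culture was targeted to 17 g/L in all but the C-limited groups, so low and high glucose are compared wherever C limitation is.

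The feed of the C-limited wild type held 25 g/L glucose, and that of the N-limited wild type 0.65 g/L ammonium sulfate as nitrogen source with 46 g/L glucose. The description of growth for the N-limited wild type also speaks of aerobic cultures with glucose limiting, and this group was taken as anaerobic and N-limited from its titles and medium. The labels call the cultures of a group independent except in the C-limited wild type, where p values may measure only technical spread. The C-, N- and Zn-limited wild types each came in a deposit of their own and the other 4 groups shared a deposit, so that deposit and group cannot be told apart in most comparisons. The exceptions are P against S in the wild type, N against C in the mutant, and the N-limited mutant against the S- and P-limited wild type. The mutant is compared only with a wild type that lacks its URA3 plasmid and kanMX marker, so the effect of these and of the deletions cannot be told apart. A change in every cell and a change in a fraction of the cells cannot be told apart in RNA of whole cultures.

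Signals below are linear array signals after each array was scaled to a trimmed mean of 150.2 and values under 12, the floor, were raised to it. Between 25.1% and 33.6% of probe sets lay at the floor on an array. Actin signal at the 3' end over that at the 5' end, a sign of RNA integrity, was 1.05 to 1.20 in C limitation of the wild type, 1.18 to 1.23 in N, 1.30 to 1.37 in S, 1.22 to 1.41 in P and 1.31 to 1.47 in Zn limitation, 1.24 to 1.42 in the C-limited and 1.18 to 1.67 in the N-limited mutant. S and Zn limitation do not overlap N limitation in this ratio, and its part in those comparisons was not tested. MSN2 signal lay between 12.0 and 13.7 in the mutant and between 58.0 and 147 in the wild type. MSN4 signal was not at the floor in the mutant: it read 34.5 to 55.6 there, overlapping P limitation of the wild type at 47.3 to 57.5, and was lower than in the wild type by under 2-fold (log2 -0.87 ± 0.22, adjusted p = 0.0129, under N limitation and -0.91 ± 0.22, adjusted p = 0.0171, under C limitation), so this probe set checks the label only weakly. One array, replicate 1 of the C-limited mutant, stood apart from its group in nitrogen-regulated genes, and counts of calls in the mutant are given with and without it. It was picked out on genes of the kind followed here, so results without it depend on that choice. Its MSN2 signal of 12 and URA3 signal of 2278 were those of the mutant, but its URA3 signal was above that of its partners, at 1087 and 1295. The N-limited mutant arrays had a mean URA3 signal of 2177 ± 294 (SD, n = 3). Without replicate 1 of the C-limited mutant MSN4 under C limitation was at -0.80 ± 0.24 (adjusted p = 0.0779). The word "called" is used of genes with a fold of at least 2 and an adjusted p under 0.05 (limma, Benjamini-Hochberg over all genes tested), errors of log2 changes are standard errors of the fit, and a fold is given as "at least" where the lower group had an array at the floor.

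DAL5 encodes the permease that takes up allantoate and ureidosuccinate. Its signal on the N-limited wild-type arrays was 2195, 2625 and 2189, a mean of 2337 ± 250.0 (SD, n = 3). On the C-limited arrays it was 70.9, 55.4 and 42.9. The S-limited arrays gave 93.0, 57.5 and 75.4, the P-limited 40.5, 69.0 and 45.4, and the Zn-limited 91.5, 74.1 and 79.6. No array of the other 4 limitations came near the N-limited ones, while the ranges of S, C and P limitation overlapped one another. The log2 change from C to N limitation was 5.40 ± 0.24, a 42.2-fold difference (limma, adjusted p = 1.49e-09), and against S, P and Zn limitation the folds were 31.5, 46.3 and 28.6. DAL5 has 3 probe sets that match it alone. A second of them rose 62.8-fold, from 24.7 ± 9.43 to 1515 ± 416 (SD, n = 3), and the third stayed near the floor in both groups, at 16.1 and 15.5, with a log2 change of -0.050.

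DUR3 encodes the plasma membrane transporter that takes up urea and polyamines. Its N-limited signals were 95.3, 188 and 100.1, its C-limited signals 28.1, 22.6 and 21.2, and its S-limited signals 17.2, 23.1 and 20.7. The P-limited arrays read 62.5, 51.5 and 55.5, and the Zn-limited arrays 61.9, 57.2 and 78.3. The gene was therefore highest in N limitation, intermediate in Zn and P limitation and lowest in C and S limitation, and the Zn and P ranges overlapped, as did those of C and S. From C to N limitation it rose 5.11-fold (log2 change 2.35 ± 0.24, adjusted p = 1.05e-05), and from S to N limitation 6.02-fold. Against P limitation the difference was 2.16-fold (log2 1.11 ± 0.24, adjusted p = 0.00289), and it fell under 2-fold, to a log2 value of 0.79, without N-limited replicate 2, the highest array. It also fell under 2-fold with quantile normalization (0.77) and with scaling to a common median (0.82). Against Zn limitation the log2 difference was 0.90 ± 0.24 with an adjusted p of 0.0165, under the 2-fold limit, and it passed that limit at 1.07 without N-limited replicate 1, at 1.04 without N-limited replicate 3 and at 1.03 without Zn-limited replicate 3.

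DAL4 encodes the allantoin permease, and of the 7 it was the gene whose N-limited arrays lay furthest apart on the log scale. They read 61.7, 42.7 and 12.9, against 18.4, 32.3 and 24.0 in C limitation. The S-limited arrays gave 24.0, 37.3 and 21, the P-limited 16.3, 15.2 and 25.5, and the Zn-limited 12.0, 18.0 and 16.1. N-limited replicate 3 was thus lower than all C-, S- and P-limited arrays, and the other two were higher than every array of the other limitations. Over all 3 arrays the log2 change from C to N limitation was 0.42 ± 0.45 with a 95% interval from -0.54 to 1.38 (limma, adjusted p = 0.524), so these arrays do not separate no change from a change of more than 2-fold. Without replicate 3 the value was 1.08 against C limitation (adjusted p = 0.0323), 1.47 against P limitation and 1.76 against Zn limitation, all called, and without replicate 1 it was -0.046 against C and -0.18 against S limitation.

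**Figure D1:**
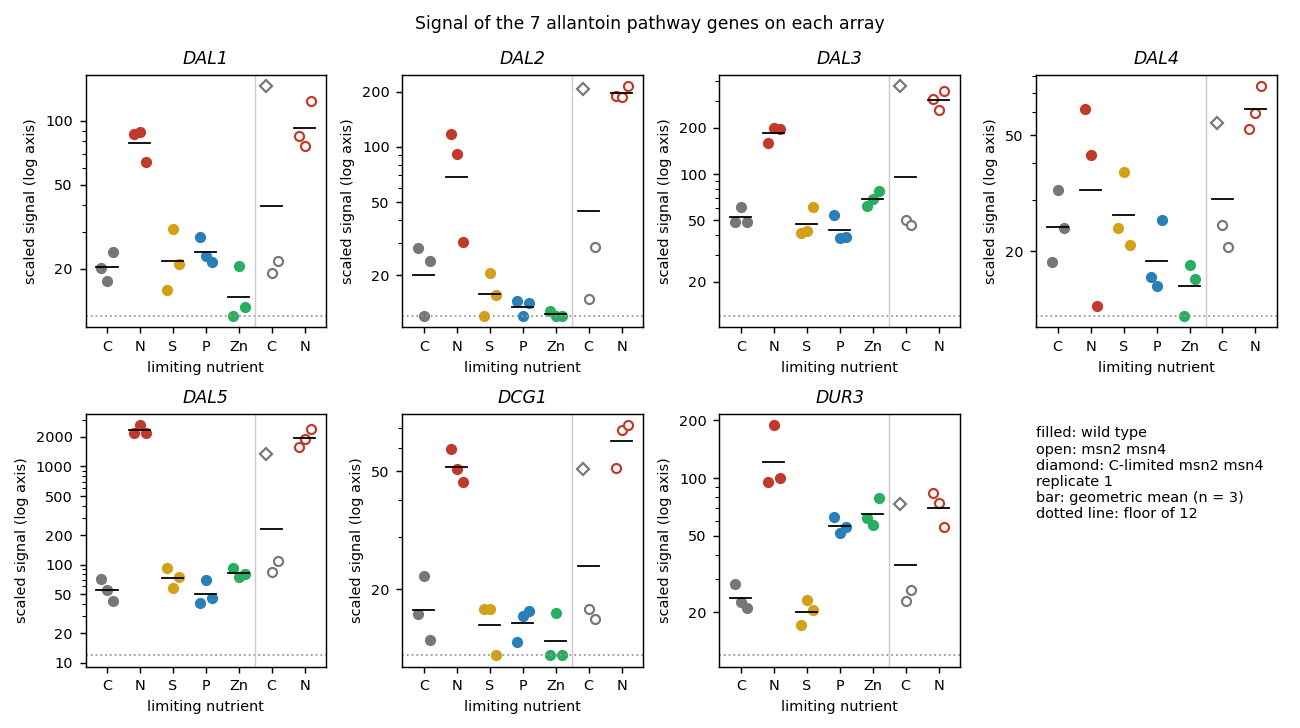
Scaled signal of each allantoin pathway gene on each of the 21 arrays (log axis, 3 arrays per group), by limiting nutrient, with wild type filled and msn2 msn4 open. The bars are geometric means and the dotted line is the floor of 12. For DAL5 the N-limited arrays sit between 1577 and 2625 in both strains, DUR3 has an intermediate level in P and Zn limitation, and the diamond, C-limited mutant replicate 1, lies far above its 2 partner arrays.

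DAL1 encodes allantoinase, which opens the allantoin ring to give allantoate. It read 86.6, 88.4 and 63.8 in N limitation and 20.1, 17.6 and 24.0 in C limitation. The other 9 wild-type arrays lay between 12.0 and 30.7, so that no N-limited array overlapped another limitation. The rise from C to N limitation was 3.86-fold (log2 1.95 ± 0.26, adjusted p = 9.83e-05).

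DAL2 encodes allantoicase, which cleaves allantoate to ureidoglycolate and urea. It read 117, 92.1 and 30.2 in N limitation and 28.2, 12.0 and 24.0 in C limitation. The lowest N-limited array, replicate 3, was the same one on which DAL4 was low, and it exceeded the highest array of the other limitations only by 30.2 to 28.2. Means were 79.8 ± 44.7 and 21.4 ± 8.40 (SD, n = 3). The rise was at least 3.42-fold (log2 1.78 ± 0.41, adjusted p = 0.00661), since a C-limited array was at the floor. Zn limitation had 2 of 3 arrays at the floor and a highest signal of 12.7, and N limitation lay at least 5.62-fold above it.

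DAL3 encodes ureidoglycolate lyase, which releases the second urea and leaves glyoxylate. Its N-limited signals were 158, 199 and 197, with a mean of 185 ± 23.0 (SD, n = 3). Its C-limited signals were 48.7, 61.3 and 48.5. S limitation gave 41.2, 42.6 and 61.2, P limitation 53.8, 38.3 and 38.9, and Zn limitation 61.9, 68.6 and 77.5. The N-limited arrays were the highest throughout and the Zn-limited arrays came next, all 3 of them above every C-, S- and P-limited array, by as little as 61.9 to 61.3. The gene rose 3.50-fold from C to N limitation (log2 1.81 ± 0.20, adjusted p = 1.85e-05) and 2.66-fold from Zn to N limitation (log2 1.41 ± 0.20, adjusted p = 0.000145). From C to Zn limitation the log2 difference was 0.39 ± 0.20 (adjusted p = 0.14) and was not called.

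DCG1, a gene of unsettled function named as controlled by Dal80, lies among the DAL genes. It read 59.2, 50.8 and 45.9 in N limitation and 16.5, 22.2 and 13.5 in C limitation, and no array of the other limitations exceeded 22.2. It rose 3.04-fold (log2 1.60 ± 0.21, adjusted p = 0.00012). DAL1, DAL2, DAL4 and DCG1 each had at least 1 array at the floor in Zn limitation, so their folds against it are lower bounds.

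All of the 7 genes but DAL4, 6 in number, were called higher in N than in C limitation, where 6.77% of all genes tested were called higher. The same 6 were called against S limitation (8.07% of all genes) and against P limitation (11.7%). Against Zn limitation 5 were called (3.54%), with DAL4 and DUR3 outside. These 4 comparisons share the N-limited arrays and are not independent of each other. On all 3 N-limited arrays 6 of the 7 genes exceeded all 12 other wild-type arrays, which 5.41% of the genes tested did. DAL1, DAL2, DAL3, DAL5 and DCG1 were called higher in N limitation against each of the other 4 limitations, a pattern shared by 35 of 5450 genes (0.642%). With all 21 arrays in 1 fit 3 of these 5 genes kept it, as DAL2 against C limitation (adjusted p = 0.0589) and DAL3 against Zn limitation (adjusted p = 0.0636) lost the call, and DAL3 against Zn limitation was at a log2 value of 0.80 with the values as deposited. The median log2 change of the 7 genes from C to N limitation was 1.81, beside a median of 0.10 over all genes tested.

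**Figure D2:**
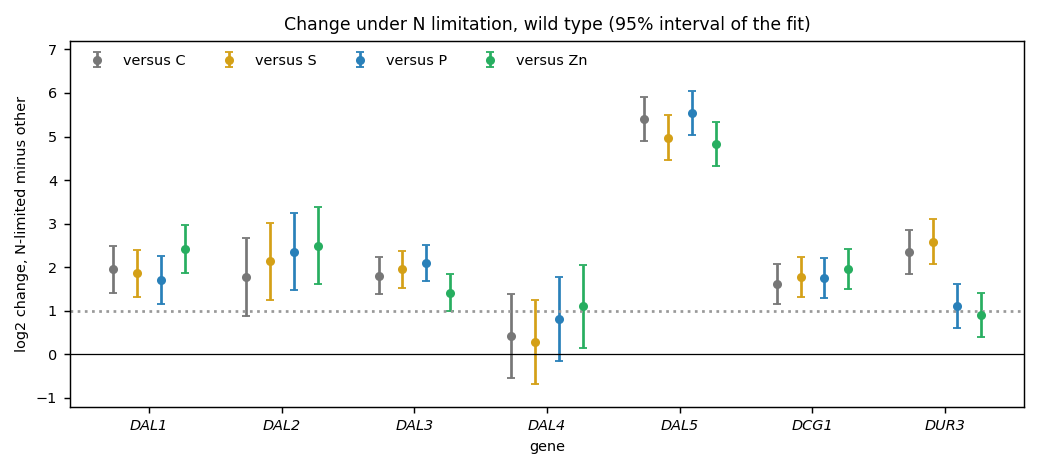
Log2 change of each gene in the N-limited wild type against each other wild-type limitation, with 95% intervals of the limma fit over 15 arrays, and the dotted line at a 2-fold change. DAL5 lies between 4.84 and 5.53, DAL4 has intervals that cross 0 against C, S and P limitation, and DUR3 is near the dotted line against P and Zn limitation.

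DUR3 was also called in comparisons without N limitation. It was 2.37-fold higher in P than in C limitation (log2 1.24 ± 0.24, limma adjusted p = 0.00151) and 2.74-fold higher in Zn than in C limitation (log2 1.45 ± 0.24, adjusted p = 0.000318), with no overlap of arrays. It was also 2.79-fold higher in P than in S limitation (log2 1.48 ± 0.24, adjusted p = 0.000775), a comparison within a single deposit. DUR3 was the only one of the 7 called in these 3 comparisons, in which 12.1%, 14.9% and 4.7% of all genes were called in either direction, so that 1 of 7 is close to the background in the first pair. With the values as deposited, unscaled, the P against C difference fell to 0.57 on the log2 scale and was not called. In S against C limitation none of the 7 was called, while 11.2% of all genes were. None of the 7 had an unadjusted p under 0.05 there, while 37.5% of all genes did. DAL5 in Zn against C limitation was 0.56 ± 0.24 on the log2 scale (adjusted p = 0.0838).

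DAL7 and MLS1, which encode related malate synthases that use the glyoxylate released by the pathway, belong with these genes by function. DAL7 read 98.0, 80.0 and 99.0 in N limitation, 17.0, 14.9 and 14.5 in C limitation and 26.2, 29.5 and 35.5 in Zn limitation, while S- and P-limited arrays did not exceed 15.4. Its rise from C to N limitation was 5.96-fold (log2 2.57 ± 0.16, adjusted p = 7.19e-08), and it was called against all 4 other limitations. From C to Zn limitation it rose 0.97 ± 0.16 on the log2 scale (adjusted p = 0.00041), just under 2-fold. MLS1 was at the floor on all C- and P-limited arrays and at 231, 168 and 254 on the N-limited ones, at least 17.9-fold higher.

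DAL1, DAL4, DAL2, DCG1, DAL7 and DAL3 follow one another on 1 chromosome, in that order by the reference annotation, with no other annotated protein-coding gene between them. DAL5 and DUR3 lie elsewhere. Of the 5 protein-coding genes on each side of the block, 1 of 10 was called higher in N than in C limitation, and none lower. Over all genes tested 6.77% were called higher, and 215 of 5450 lower, so the neighbours are close to the background. The gene called was DAL81, which encodes a co-activator of the DAL genes themselves, with a log2 change of 1.29 ± 0.25 (limma adjusted p = 0.00186). The other 9 ranged from -0.61 for YVH1 to 0.58 for MGA2, the gene directly next to DAL3. YVH1, directly next to DAL1, had an adjusted p of 0.105, so neither gene bordering the block was called.

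**Figure D3:**
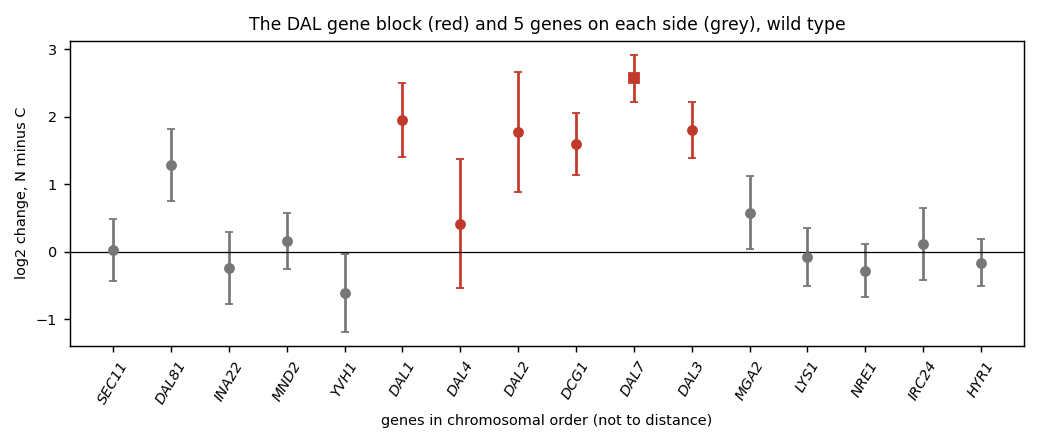
Log2 change from C to N limitation in the wild type along the DAL gene block and its 5 neighbours on each side, in gene order with equal spacing, with 95% intervals of the fit. Block genes are red, DAL7 is a square, and neighbours are grey. DAL1, DAL2, DCG1, DAL7 and DAL3 lie between 1.60 and 2.57, DAL4 is at 0.42 with the widest interval, and of the neighbours DAL81 alone was called, at 1.29.

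Of 7 regulators of the pathway 5 were called higher in N than in C limitation and none lower, but 2 against S, 2 against P and 3 against Zn limitation. DAL80, the GATA repressor of the DAL genes and itself a target of nitrogen catabolite repression, read 464, 500.0 and 501 in N limitation and 16.8, 22.0 and 15.1 in C limitation, a log2 change of 4.78 ± 0.21 (limma adjusted p = 1.49e-09). GAT1, a GATA activator, rose by 2.19 ± 0.24 on the log2 scale, GZF3, a GATA repressor, by 1.55 ± 0.35, DAL81 by 1.29 ± 0.25 and DAL82 by 1.10 ± 0.18. DAL80 was called against all 4 other limitations, GZF3 also against S and P, and GAT1 and DAL82 also against Zn limitation. GAT1 signal was 418 ± 53.9 in N, 368 ± 96.0 in S and 280.2 ± 33.1 in P limitation (SD, n = 3), and that of DAL82 was 144 ± 7.15 in N and 133 ± 25.6 in S limitation. GLN3, which encodes the other GATA activator, had a log2 change of 0.081 ± 0.19 (adjusted p = 0.793), and URE2 one of -0.40 ± 0.22 (adjusted p = 0.195). DAL80 also differed between P and S limitation, by at least 2.24-fold (log2 1.16 ± 0.21, adjusted p = 0.00186), with P-limited arrays at 41.8, 29.3 and 28.1.

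Of 3 ammonium permease genes MEP2, the high-affinity permease, rose by 3.67 ± 0.41 on the log2 scale, MEP3 fell by 2.07 ± 0.28, and MEP1 was not called. MEP2 was called higher against the other 3 limitations too, whereas MEP3 read 216 ± 24.7 in C, 51.7 ± 7.21 in N, 36.8 ± 9.61 in S and 23.4 ± 11.8 in P limitation (SD, n = 3) and was higher in N than in P limitation (log2 1.25 ± 0.28, adjusted p = 0.00419). MEP1 was higher in N than in S limitation (log2 1.60 ± 0.35, adjusted p = 0.00506). Of 18 other genes of nitrogen catabolite repression that were tested, of 20 listed, 9 were higher and 1 was lower. The largest changes were those of GAP1, the general amino acid permease (log2 4.77 ± 0.26), PUT1, the proline oxidase (4.56 ± 0.23), CPS1, a vacuolar carboxypeptidase (4.03 ± 0.25), and OPT2, an oligopeptide transporter family member (3.45 ± 0.29). The one lower gene was AGP1, a broad amino acid permease, at -2.84 ± 0.26 (limma adjusted p = 3.17e-06).

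The mean log2 signal of the 7 genes, each centred on its own mean, was set against every gene with an SD of at least 0.5 over the 15 wild-type arrays, 1989 genes. The most alike genes outside the 7 were VBA1, a vacuolar basic amino acid permease (Pearson r = 0.963), DAL80 (0.953), PUT4, the proline permease (0.95), MLS1 (0.946) and CPS1 (0.932), followed by FMP41, ILT1, YHI9, AMD2 and GAP1 with r from 0.918 down to 0.908. DAL7 stood at 0.888, MEP2 at 0.882 and GAT1 at 0.482. The 7 genes were not scaled to equal spread, so DAL5, with the largest changes, weighs most in their mean. Each of the 7 is part of that mean, which raises its own value beside those of genes outside the 7. DAL5 itself stood at 0.967, DCG1 at 0.946, DAL1 at 0.925, DAL3 at 0.91 and DAL2 at 0.906. DUR3 stood only at 0.724 and DAL4 at 0.514, at ranks 77 and 323, so the list is not of genes like all 7. Arrays of 1 group share their limitation, and these values describe the 5-limitation pattern more than independent points. Between pairs of the 7 genes r over the same 15 arrays ran from 0.023 for DAL4 and DUR3 to 0.931 for DAL3 and DAL5, with a median of 0.735 over 21 pairs.

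In the strain without Msn2 and Msn4 the N-limited arrays had the allantoin genes at high levels. On its brightest probe set DAL5 read 1577, 1885 and 2424, within or below the wild-type N-limited range. DAL3 read 307, 260.1 and 346, above all wild-type arrays. DAL2 read 189, 188 and 215, above the highest wild-type N-limited array at 117. DUR3 read 83.7, 74.5 and 55.4, below the lowest wild-type N-limited array at 95.3 and overlapping wild-type P limitation. DAL1 ranged from 76.2 to 124, DAL4 from 52.7 to 73.8 and DCG1 from 51.4 to 71.4.

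Between mutant and wild type under N limitation none of the 7 genes was called with all 21 arrays in the limma fit, where 7.84% of all genes were called. An unadjusted p under 0.05 was found for 2 of the 7 and for 34.2% of all genes. DAL2 was higher in the mutant by 1.52 ± 0.66 on the log2 scale (adjusted p = 0.114), and DUR3 had a value of -0.79 ± 0.34 (adjusted p = 0.11). Without C-limited mutant replicate 1, which enters this fit only through the shared estimate of spread, DAL2 was called at the same log2 value of 1.52 ± 0.40 (adjusted p = 0.0127), as 1 of 7 where 8.39% of all genes were called. DAL3 at 0.72 ± 0.19 (adjusted p = 0.0119) and DUR3 at -0.79 ± 0.23 (adjusted p = 0.0216) then passed the p threshold with under 2-fold. The smaller standard errors follow from leaving out an array picked for standing apart in genes of this kind. The DAL2 difference also rests on a wild-type group with a low replicate 3. Without the array DAL5 differed by -0.27 ± 0.24, a 95% interval from -0.77 to 0.23, and DAL7 by 0.012 ± 0.18. With it the differences were the same and the standard errors 0.65 and 0.44. The DAL5 values are those of its brightest probe set. A second DAL5 probe set was lower in the N-limited mutant, at 606 ± 86.7 beside 1515 ± 416 in the wild type (SD, n = 3). The arrays of the 2 strains did not overlap on it. The third, near the floor in the wild type, was slightly higher in the mutant, with overlapping arrays. The strain difference on these other probe sets was not tested.

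The regulator DAL80 was lower in the N-limited mutant, with signals of 223, 139 and 132 beside 464 to 501 in the wild type (log2 -1.61 ± 0.51, adjusted p = 0.0384, and 9.91e-05 without C-limited mutant replicate 1). MLS1 was also lower in each mutant array, at 77.8, 88.0 and 112 (log2 -1.23 ± 0.48, adjusted p = 0.0798, and called at 0.00384 without that array). These groups came in different deposits.

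On the C-limited mutant arrays replicate 1 differed from its partners in every one of the allantoin genes. DAL5 read 1337 on replicate 1 and 83.5 and 109 on the others, and DAL3 read 373 against 50.3 and 46.9. DAL1 read 146 against 19.2 and 21.8, and DAL2 207 against 14.9 and 28.5. All 7 genes were higher on replicate 1 than on both of its partners, from 2.43 times their mean for DAL4 to 13.9 times for DAL5. On that array DAL1 and DAL3 were above the highest N-limited mutant array, DAL5 and DCG1 were below the lowest, and DAL2, DAL4 and DUR3 were in between. GAP1 at 1993 beside a partner mean of 114, MEP2 at 2062 beside 169, PUT1 at 261 beside 25.1 and DAL80 at 92.1 beside 12.0 were high on it too. The cause was not tested.

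Between mutant and wild type under C limitation none of the 7 was called in limma, with 4.03% of all genes called. The one gene with an unadjusted p under 0.05, where 23.7% of all genes had one, was DAL5 (log2 2.06 ± 0.65, adjusted p = 0.0586). Without C-limited mutant replicate 1 none was called either (2.58% of all genes), 1 had an unadjusted p under 0.05 (17.8% of all genes), and this was DAL5 at 0.79 ± 0.27 (adjusted p = 0.118). Leaving out C-limited mutant replicate 2 instead, which gives replicate 1 more weight, called DAL5 at 2.79 and DAL2 at 1.94 on the log2 scale. Over all genes 491 were then called, in place of 220 with all arrays. Leaving out replicate 3 called DAL5 at 2.60, with 215 of all genes called.

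Whether the genes were called higher in N than in C limitation without Msn2 and Msn4 depended on the same array. All 7 log2 changes were above 0 both with that array and without it. With all arrays none of the 7 was called in N against C limitation of the mutant, where limma called 0.0366% of all genes higher, although all 7 had an unadjusted p under 0.05, as 10.5% of all genes did. DAL5 had the largest of the 7 values, 3.07 ± 0.65 on the log2 scale (adjusted p = 0.0961). DAL2 was at 2.15 ± 0.66, DAL3 at 1.66 ± 0.50, DCG1 at 1.40 ± 0.33, DAL1 at 1.23 ± 0.52, DAL4 at 1.02 ± 0.46 and DUR3 at 1.00 ± 0.34. C-limited mutant replicate 1 was picked out for its values in genes of this kind, so the count without it is not independent of that choice. Without replicate 1, with 2 C-limited arrays against 3, 6 of the 7 were called higher, where 1.98% of all genes were. DAL5 rose by 4.34 ± 0.27 on the log2 scale (adjusted p = 1.13e-08), DAL2 by 3.26 ± 0.45, DAL3 by 2.64 ± 0.21, DAL1 by 2.18 ± 0.29, DCG1 by 1.94 ± 0.23 and DUR3 by 1.52 ± 0.26. DAL4 was at 1.45 ± 0.46 (adjusted p = 0.0685). These 2 mutant groups share a deposit.

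The difference between the strains in the response to N against C limitation was called for none of the 7 in limma, with all arrays (1.5% of all genes called) or without C-limited mutant replicate 1 (2.47%). An unadjusted p under 0.05 was found for 2 of the 7 and 16.9% of all genes with all arrays, and for 4 of the 7 and 23% of all genes without that array. The sizes depended on the array. With all arrays the mutant minus wild type differences were -2.33 ± 0.92 for DAL5 (adjusted p = 0.211), -1.36 ± 0.48 for DUR3 (adjusted p = 0.17) and 0.37 ± 0.93 for DAL2 (adjusted p = 0.883). Without it they were -1.06 ± 0.36 for DAL5 (adjusted p = 0.101), -0.83 ± 0.35 for DUR3 (adjusted p = 0.176) and 1.48 ± 0.60 for DAL2 (adjusted p = 0.165). DAL1, DAL3 and DCG1 turned sign, from -0.72, -0.15 and -0.21 with all arrays to 0.23, 0.83 and 0.33 without it. DAL4 was at 0.60 and 1.03.

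**Figure D4:**
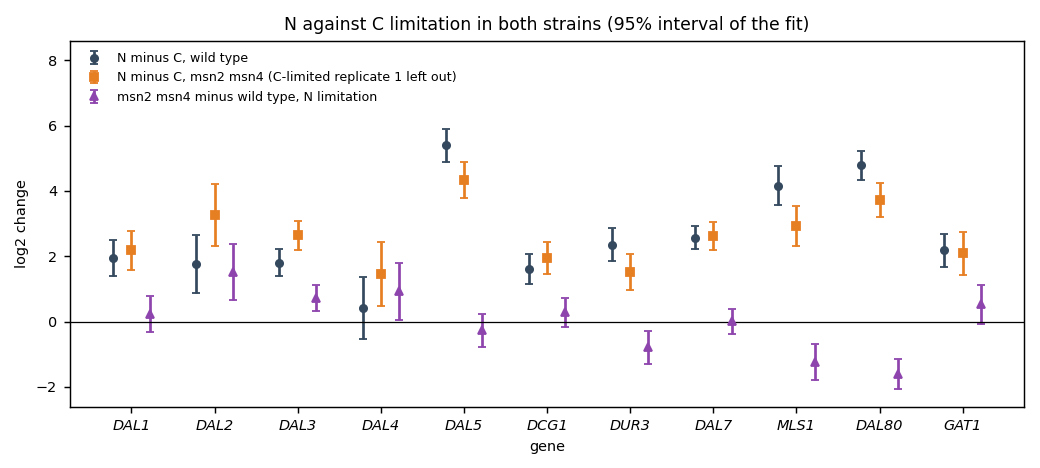
Log2 change from C to N limitation in the wild type and in msn2 msn4, and log2 difference of msn2 msn4 minus wild type under N limitation, for the 7 genes and DAL7, MLS1, DAL80 and GAT1, with 95% intervals. C-limited mutant replicate 1 is left out of the msn2 msn4 values. The msn2 msn4 change is 4.34 for DAL5 beside 5.40 in the wild type, and DAL80 lies lowest in the strain difference, at -1.61.

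A comparison across strains but within a deposit set the N-limited mutant against the mean of S- and P-limited wild type. All 7 genes were called higher, where 2.25% of all genes were, and all 7 again without C-limited mutant replicate 1 (2.27%). DAL5 was 31.7-fold higher (log2 4.99 ± 0.56, limma adjusted p = 1.31e-05), DAL2 at least 13.6-fold, DAL3 6.68-fold, DAL1 4.05-fold and DCG1 at least 4.13-fold. DAL4, which was not called in the wild type, was 2.77-fold higher here (adjusted p = 0.0258), and DUR3 was 2.08-fold higher (adjusted p = 0.0315). The last pair lost the call under several alternatives. Leaving out any N-limited mutant array took DAL4 to adjusted p values from 0.0601 to 0.099, and leaving out replicate 1 or 2 took DUR3 to 0.14 or 0.122. Strain and limitation differ together in this comparison.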

How the data were processed

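Signals on the 21 arrays were used as deposited: the authors' table holds linear intensity for 9335 probe sets, made with GCOS, version 1.2 per the submitters' processing notes. Per the labels the 12 arrays of the shared deposit had values under 12 set to 12, yet 35231 of their values in the table are lower. No total count exists, and 3 arrays per group limit the precision. Each array was scaled to a 2% trimmed mean of 150.2, floored at 12 and taken to log2. The brightest of a gene's single-gene probe sets was kept, which gave 5656 genes, named through the R64 annotation. For wild-type comparisons limma 3.58.1 (R 4.3.3) was run on the 15 wild-type arrays and 5450 genes above the floor somewhere, because 1 mutant array stood apart. Mutant comparisons used all 21 arrays and 5461 genes, then 20 arrays. p values were adjusted by Benjamini-Hochberg within each comparison over all genes tested. The fit was tested on simulated data.

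The 7 genes and all lists were chosen with earlier results of these data known. Named were the 7 genes, strain checks, from each list up to 4 called genes with the largest N against C change and up to 2 others, and the 10 most alike genes. Others that complete a count of 5 or fewer or that mark the array apart were named after their values were seen. Replicate numbers were not used to pair the arrays, since no comparison had all its same-number correlations of deviations over 0.1 (S against C limitation, with 0.171, 0.187 and 0.0759, came closest). Correlations between arrays of different number were not set beside these, so the check cannot show that pairing is absent. The alternatives were other scalings, floors, filters, probe set rules, fits and left-out arrays.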

Additional observations from a re-analysis of the deposited data

How the results depend on the processing

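The 53 results on single genes that were called under at least 1 setting were counted over their alternatives, 914 in all. Results called under no setting were left out, among them the strain differences of DAL1, DAL3 and DCG1, which turned sign. Of the 914 alternatives 863 kept direction and side of the threshold, 26 gained a call, 22 lost it and 3 reversed. The reversals were DAL4 in N against C limitation without N-limited wild type replicate 1 (-0.046) and in N against S limitation with quantile normalization (-0.083) or without that replicate (-0.18), and over all left-out arrays DAL4 ranged up to 1.08 against C and 0.95 against S limitation. With the values as deposited 1 of the 7 genes was called in S against C, 2 in P against C and 3 in Zn against C limitation, and 1 between mutant and wild type under N limitation. Over all genes 1737, 2116, 2345 and 2782 were then called in these comparisons, in that order, in place of 613, 657, 814 and 428. Fitting only the groups compared also called 1 of the 7 between the strains under N limitation, where 460 of all genes were called. Requiring signal above the floor on at least 3 arrays called 1 of the 7 between the strains under C limitation, where 241 of all genes were called. All 21 arrays in 1 fit left 3 genes called against all other limitations, in place of 5, with DAL2 in N against C at an adjusted p of 0.0589 and DAL3 in N against Zn at 0.0636. As deposited, DAL3 in N against Zn limitation fell to 0.80. Leaving out single arrays gave 0 to 1 calls between the strains under N limitation, 0 to 2 under C limitation, and 0 to 6 in N against C limitation of the mutant. Over all genes the calls then ran from 313 to 458, from 141 to 491 and from 1 to 282. Scaling moved the median of all genes in N against C limitation from 0.10 to 0.30 as deposited, with 702 genes higher and 156 lower in place of 369 and 215, and to -0.0039 with quantile normalization (247 and 300) and -0.0084 with a common median (255 and 286). The replicate numbers were not used to pair the arrays in the main fits. A fit with the replicate block called 6 of the 7 genes in N against C limitation and changed no count of the 7 in any comparison. Signals near the floor limit the folds of DAL1, DAL2, DAL4 and DCG1.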

Other observations

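Relatives of the permeases DAL4 and DAL5 and genes of the purine side of the pathway had 1 call per list in N against C limitation. Over all genes tested 6.77% were called higher there, so these small counts are not set apart from the background. Of 11 relatives of DAL4 and DAL5 tested, of 12 listed, 1 was higher in N than in C limitation and none was lower. It was YCT1, a cysteine transporter in the family of DAL5, at a log2 change of 2.36 ± 0.24 (limma adjusted p = 1.27e-05). YCT1 was highest in S limitation, at 2331 ± 414, beside 259.9 ± 1.43 in N and 244 ± 97.2 in Zn limitation. It read 51.2 ± 9.41 in C and 22.7 ± 4.71 in P limitation (SD, n = 3). In N against S limitation 4 of the 11 relatives were higher and 3 lower, where 440 and 184 of 5450 genes were. Against P limitation 3 were higher and 1 lower (638 and 168 genes), and against Zn limitation 1 was higher and none lower (193 and 252 genes). Of 6 genes for the uptake and turnover of purine bases 1 was higher in N than in C limitation, AAH1, the adenine deaminase, at 1.11 ± 0.30 (adjusted p = 0.0152). FCY2, the purine-cytosine permease, had a value of 0.87 ± 0.26 (adjusted p = 0.0229), under the 2-fold limit.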
